A study of Sus scrofa domesticus with 2 samples.

Results

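Of the 22804 genes counted in cultured aorta endothelial cells (ECs) and cultured lung ECs of the domestic pig, 6 are described here, the transcription factor genes SNAI1, SNAI2, ZEB1, ZEB2, TWIST1 and PRRX1. They were chosen by name, as the factors most often tied to endothelial-to-mesenchymal transition (EndMT), and all 6 were found by symbol in both count matrices. In EndMT, ECs lose junction and vessel genes and take up genes of contractile and matrix-producing cells. SNAI1, SNAI2, ZEB1 and ZEB2 encode zinc finger proteins that bind E-box motifs and mostly repress transcription. TWIST1 is a basic helix-loop-helix factor and PRRX1 a homeobox factor, both known from mesenchymal cells of the embryo.

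The study isolated primary ECs from pig aorta and pig lung by enzymatic digestion, cultured them in DMEM with 10% serum and sequenced each culture with 10x Genomics 3′ chemistry as 1 library. The number of animals and of passages is not given in the sources used here, and none states that an inducer of EndMT was added to these cultures. With 1 library per tissue, tissue and library cannot be told apart, and no test between conditions was possible. All intervals are exact 95% intervals and cover counting error only.

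After cells with at most 200 detected genes or with 30% or more mitochondrial UMIs were left out, 955 of 1185 aorta cells and 5709 of 5946 lung cells were kept, with 45215532 and 56953321 UMIs. Cells with at least 5000 detected genes stayed in. Each cell was placed by whether it held more PECAM1 UMIs (an EC adhesion molecule) or more COL1A1 and COL1A2 UMIs (both chains of type I collagen). In the aorta 704 cells (73.7%) lay on the PECAM1 side and 185 (19.4%) on the collagen side, and 63 held none of these UMIs. In the lung the PECAM1 side held 5305 cells (92.9%), the collagen side 356 (6.24%), and 43 cells held none. Median depth was alike on the PECAM1 and collagen sides of each library, at 53208 and 54164 UMIs per cell in the aorta and 9434 and 10722 in the lung. The aorta collagen side nonetheless had a larger part of shallow cells. Fewer than 5000 genes were detected in 57 of its 185 cells, against 123 of 704 on the PECAM1 side. The libraries shared 3 cell barcodes among the cells kept.

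The labels were checked against marker lists. All 9 endothelial markers were counted on both PECAM1 sides, with a summed level of 2501 UMIs per 1000000 UMIs counted (CPM) in the aorta and 2777 CPM in the lung, although KDR, a VEGF receptor, was at only 0.390 and 1.78 CPM. On the collagen sides 8 and 9 of these markers were counted, and they summed to 112 and 414 CPM. PECAM1, which defined the sides, was itself at 1290 and 1592 CPM within the PECAM1-side sums. The lung collagen side still held 191 CPM of PECAM1 against 25.2 CPM in the aorta. The other endothelial markers were each lower on the collagen sides, KDR in the aorta with overlapping intervals. CDH5 was at 195 against 4.94 CPM in the aorta and 156 against 23.7 CPM in the lung. ERG was at 150 against 47.6 CPM and 127 against 38.1 CPM. Smooth muscle and pericyte markers summed to 3974 and 3784 CPM on the collagen sides against 250 and 967 CPM on the PECAM1 sides, and ACTA2 and TAGLN carried most of these sums. The pericyte gene RGS5 was at 0 on the aorta collagen side, and the smooth muscle myosin gene MYH11 was lower there, at 0.549 against 1.95 CPM, and at 0.724 (3 UMIs) against 1.46 CPM in the lung, with overlapping intervals. Of the fibroblast markers outside the split, COL3A1 was higher on both collagen sides, whereas DCN (18.5 against 4.72 CPM), LUM (15.7 against 11.96 CPM) and PDGFRA (7.77 against 4.17 CPM) stood higher on the PECAM1 side of the aorta. Leukocyte markers summed to at most 29.9 CPM on any side, with PTPRC at 0 in the aorta. Whether collagen-side cells arose from ECs in culture or came through the isolation as mesenchymal cells was not tested.

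The 6 genes lie on 5 chromosomes of the Sscrofa11.1 build in the RefSeq annotation. SNAI1 spans chr17:51546446-51552498 and TWIST1 chr9:88286911-88290131. SNAI2, at chr4:79264880-79268475, and PRRX1, at chr4:80427682-80502689, stand 1159 kb apart on the same chromosome. ZEB1 spans chr10:42013114-42216139 and ZEB2 chr15:7498879-7631347. ZEB1 overlaps LOC110255584 and, on the opposite strand, ZNF438. ZEB2 and PRRX1 each overlap an uncharacterised gene on the opposite strand. Since the strand setting of the counting is not given in the sources used here, reads of these partners may have entered those counts.

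The 250 bases before the annotated start are shown for SNAI1 and PRRX1, because PRRX1 set the sides apart in both libraries and SNAI1 was the member that parted from it in the lung, as described further on. They were read 5′ to 3′ in the direction of transcription from the Sscrofa11.1 sequence, and capitals mark the E-box that SNAIL and ZEB proteins are known to bind, CAGGTG or its reverse complement CACCTG.
SNAI1, chr17:51546196-51546445, plus strand: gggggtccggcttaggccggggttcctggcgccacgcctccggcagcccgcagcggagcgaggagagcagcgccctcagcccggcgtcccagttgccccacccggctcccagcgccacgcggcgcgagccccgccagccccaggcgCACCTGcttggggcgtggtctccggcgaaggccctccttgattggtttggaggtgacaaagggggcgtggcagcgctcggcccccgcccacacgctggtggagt
PRRX1, chr4:80502690-80502939, minus strand: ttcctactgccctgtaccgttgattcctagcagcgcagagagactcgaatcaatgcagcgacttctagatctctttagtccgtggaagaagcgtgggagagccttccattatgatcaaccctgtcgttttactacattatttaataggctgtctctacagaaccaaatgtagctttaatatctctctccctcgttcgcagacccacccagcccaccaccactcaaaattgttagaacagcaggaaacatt
The SNAI1 window held 1 such E-box, 104 bases before the start, and the PRRX1 window held none. Of 19556 protein-coding genes, 19.6% had the motif in a window of this length. A match is a description of the letters and not a binding site.

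PRRX1 set the collagen side apart in both libraries. In the aorta it was at 2.03 CPM (73 UMIs) on the PECAM1 side and 114 CPM (1039 UMIs) on the collagen side, a ratio of 56.1 (44.2 to 72.1). In the lung it was at 0.797 CPM (42 UMIs) and 44.6 CPM (185 UMIs), a ratio of 56.0 (39.9 to 80.3). The ratio was thus nearly equal in the libraries, while the levels of both sides were lower in the lung. Of all genes with at least 30 UMIs over the 2 sides, PRRX1 had the 85th highest ratio among 11603 in the aorta and the 87th among 11643 in the lung. In aorta cells with fewer than 5000 detected genes, 123 on the PECAM1 side and 57 on the collagen side, the ratio was 118 (19.8 to 4781), from 36 PRRX1 UMIs on the collagen side and 1 on the PECAM1 side. With CDH5, VE-cadherin, in place of PECAM1 the lung ratio was 33.0.

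TWIST1 and SNAI2, known for repressing E-cadherin, followed the same direction. TWIST1 was at 0.474 CPM (17 UMIs) on the aorta PECAM1 side and 10.3 CPM (94 UMIs) on the collagen side, a ratio of 21.8 (12.9 to 39.0). In the lung it was at 0.0569 CPM (3 UMIs) and 10.9 CPM (45 UMIs), a ratio of 191 whose interval, 61.2 to 960, reflects those 3 UMIs. The TWIST1 level of the collagen sides was therefore alike in both tissues. SNAI2 was at 1.59 CPM (57 UMIs) and 22.4 CPM (204 UMIs) in the aorta, a ratio of 14.1 (10.5 to 19.3), and at 0.228 CPM (12 UMIs) and 9.41 CPM (39 UMIs) in the lung, a ratio of 41.3 (21.2 to 86.7). The larger lung ratio of SNAI2 came with lower levels on both lung sides, and with CDH5 in place of PECAM1 it was 21.9.

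SNAI1, an early and short-lived repressor in epithelial transitions, was counted on every side and differed less. It was at 5.38 and 16.6 CPM on the aorta PECAM1 and collagen sides, a ratio of 3.08 (2.47 to 3.83), and at 4.54 and 12.1 CPM in the lung, a ratio of 2.66 (1.92 to 3.62). Intervals of the 2 ratios overlapped.

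The ZEB genes went opposite ways. ZEB1 was higher on the PECAM1 side, at 30.1 against 16.7 CPM in the aorta, a ratio of collagen to PECAM1 side of 0.555 (0.465 to 0.658). In the lung it was at 33.2 against 20.5 CPM, a ratio of 0.618 (0.491 to 0.768). ZEB2 was higher on the collagen side, at 60.4 and 112 CPM in the aorta, a ratio of 1.85 (1.71 to 1.99), and at 48.6 and 113 CPM in the lung, a ratio of 2.32 (2.10 to 2.57). ZEB1 was the single member that was lower on the collagen side, and it was so in both libraries. Its aorta ratio was 0.289 (0.0567 to 0.918) in cells with fewer than 5000 detected genes, from 3 UMIs on the collagen side. Among those with at least 1% mitochondrial UMIs it was 0.457 (0.0898 to 1.45), an interval that includes 1. Counted over ZEB1 and ZEB2 UMIs together, ZEB1 made up 33.2% (31.6 to 34.9) on the aorta PECAM1 side and 13.0% (11.14 to 15.08) on the collagen side. In the lung these parts were 40.6% (39.1 to 42.1) and 15.4% (12.5 to 18.7).

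**Figure D1:**
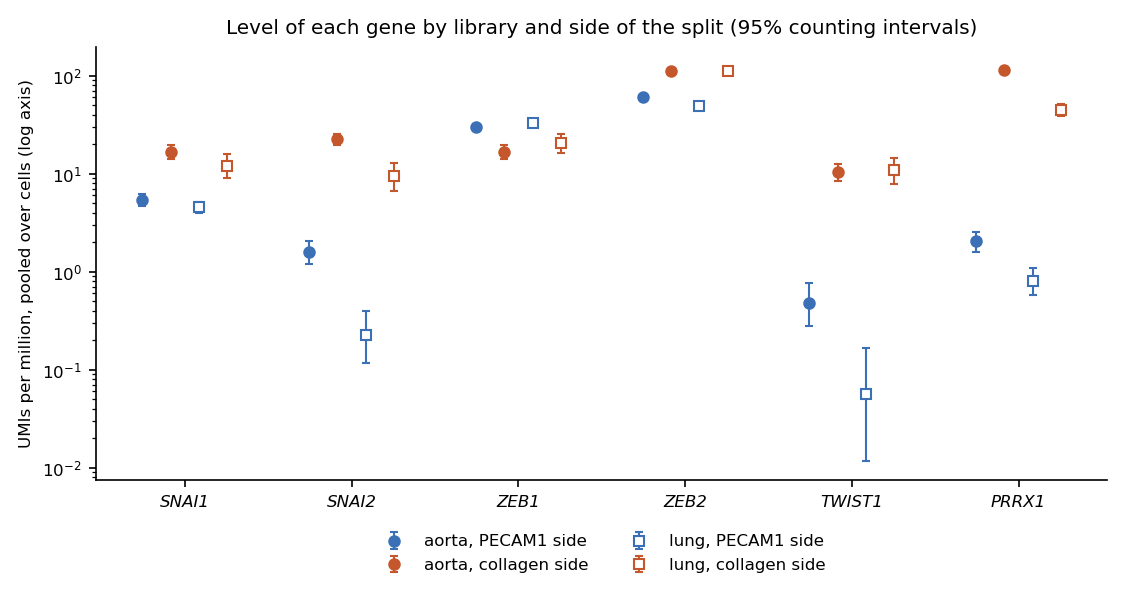
Level of each of the 6 genes in CPM on a log axis, on the PECAM1 and collagen sides of the aorta and lung libraries, with exact 95% counting intervals and 1 library per tissue. PRRX1, TWIST1 and SNAI2 stand over 10-fold higher on the collagen side in both libraries, SNAI1 and ZEB2 stand higher by smaller ratios, and ZEB1 stands lower.

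In the aorta 4 of the 6 members were at least 2-fold higher on the collagen side (SNAI1, SNAI2, TWIST1 and PRRX1), where 8.18% of all genes tested were, and none was 2-fold higher on the PECAM1 side, where 17.7% were. With levels averaged over cells, the aorta ratio of ZEB1 was 0.463, past 2-fold to the PECAM1 side. It was also past 2-fold, at 0.289, in cells with fewer than 5000 detected genes. In the lung 5 of 6 were at least 2-fold higher on the collagen side, ZEB2 being the addition, against 7.84% of all genes, and none was 2-fold higher on the PECAM1 side, against 13.2%. The median ratio of the members was 8.59 in the aorta and 22.0 in the lung, and that of all genes tested was 0.963 and 0.975. ZEB2 lay close to the limit of 2-fold in both libraries, so the difference between 4 and 5 rests on ratios of 1.85 and 2.32. With CDH5 in place of PECAM1 the lung ratio of ZEB2 was 1.70 and the count 4.

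Between tissues, the members with enough UMIs that were at least 2-fold apart were SNAI2 and PRRX1. On the PECAM1 side, SNAI2 was at 0.143 (0.0700 to 0.270) and PRRX1 at 0.392 (0.262 to 0.581) of the aorta level in the lung. Of the 5 members tested there these 2 were at least 2-fold lower in the lung, against 6.57% of all genes, and none was 2-fold higher, against 2.74%. Type I collagen was itself at 0.437 (0.409 to 0.466) of the aorta level on the lung PECAM1 side, within the interval of PRRX1. Whether free RNA carries the PRRX1 difference was not tested. TWIST1, with 20 UMIs over both PECAM1 sides, was under the minimum of 30 UMIs, and its ratio of lung to aorta was 0.120 (0.0226 to 0.416). ZEB1 differed little, at 1.10 (1.02 to 1.19), as did SNAI1, at 0.844 (0.695 to 1.03), and ZEB2, at 0.804 (0.759 to 0.852). With aorta and lung cells of fewer than 5000 detected genes the ratio of PRRX1 was 0.999 (0.170 to 40.4), against 1 aorta UMI. Of the 5 members tested in all cells, SNAI2 was then at least 2-fold lower in the lung, at 0.0714 (0.0216 to 0.304). That ratio rested on 12 lung and 4 aorta UMIs, under the minimum of 30 UMIs.

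On the collagen side, PRRX1 was again at 0.392 (0.333 to 0.458) of the aorta level and SNAI2 at 0.420 (0.291 to 0.595). They were 2 of 6 members at least 2-fold lower in the lung, against 3.19% of all genes, and none was 2-fold higher, against 4.4%. The ratio of ZEB1 was 2.49 (0.821 to 12.3) in cells with fewer than 5000 detected genes. In all cells the other ratios had intervals that included 1, namely 0.728 (0.518 to 1.01) for SNAI1, 1.23 (0.932 to 1.61) for ZEB1, 1.01 (0.906 to 1.13) for ZEB2 and 1.05 (0.721 to 1.52) for TWIST1. Type I collagen itself was at 9961 CPM on the aorta collagen side and 10694 CPM on the lung collagen side, so PRRX1 and SNAI2 were lower in the lung at a like collagen level. In order of level, PRRX1 and SNAI2 ran from the aorta collagen side to the lung collagen side, the aorta PECAM1 side and the lung PECAM1 side. The collagen sides of both tissues could not be ordered by counting error for SNAI1, ZEB1, ZEB2 or TWIST1.

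Some members' UMIs were counted on the PECAM1 side, where RNA set free from other cells can also be counted. The PECAM1-side level was 1.78% of the collagen-side level for PRRX1 in the aorta and 1.79% in the lung. For COL1A1 and COL1A2, whose UMIs had defined the sides, it was 0.657% and 0.267%, and for ACTA2, a smooth muscle actin that was not used in the split, 0.290% and 0.431%. Other mesenchymal genes outside the split spread widely. CDH2 was at 0.151% in the aorta and 0.330% in the lung, and PDGFRB at 1.59% and 0.704%. THY1 was at 5.25% and 3.29%, and S100A4 at 7.22% and 2.77%. Among those far higher were SPARC at 37.7% and 25.9%, VIM at 53.3% and 57.0%, and MMP2 at 411% and 226%. SNAI2 stood above type I collagen and ACTA2 in the aorta, at 7.09% (5.19 to 9.56), as did TWIST1, at 4.59% (2.57 to 7.75). PRRX1, SNAI2 and TWIST1 thus lay within the spread of these mesenchymal genes in both libraries. In the lung SNAI2 was at 2.42% (1.15 to 4.72) and TWIST1 at 0.524% (0.104 to 1.63), the latter not apart from ACTA2. SNAI1, at 32.4% and 37.6%, and ZEB2, at 54.2% and 43.0%, were far above type I collagen and ACTA2. They too lay within the spread of the mesenchymal genes in both libraries. The part of free RNA in these levels was not tested.

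Counted per cell, PRRX1 was found in most collagen-side cells of the aorta. It had a UMI in 150 of 185 of them (81.1%) and in 56 of 704 PECAM1-side cells (7.95%). Among the cells with at least 5000 detected genes it was found in 128 of 128 collagen-side cells, with a median of 8 UMIs and at most 21 in a cell, and in 55 of 581 PECAM1-side cells (9.47%). In the lung, 133 of 356 collagen-side cells (37.4%) and 40 of 5305 PECAM1-side cells (0.754%) held a PRRX1 UMI.

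Since median depth was alike on both aorta sides but far higher than in the lung, each cell was thinned to 5000 UMIs. This left out 41 PECAM1-side and 31 collagen-side cells of the aorta, and 352 and 31 of the lung. PRRX1 was then found in 0.754% of aorta PECAM1-side cells and 45.5% (37.4 to 53.7) of collagen-side cells, and in 0.323% and 20.6% in the lung. SNAI2 was found in 0.603% and 10.4% in the aorta and 0.0404% and 5.23% in the lung. TWIST1 was found in 0.452% and 5.19% in the aorta, and its lung shares were the same as those of SNAI2. At 5000 UMIs these 3 genes were each found in fewer than 1% of PECAM1-side cells in either library, and thinned to 10000 UMIs PRRX1 was found in 1.91% of aorta and 1.12% of lung PECAM1-side cells and SNAI2 in 1.91% and 0.314%. The collagen-side shares at 10000 UMIs were 67.1% and 35.2% for PRRX1 and 17.9% and 8.80% for SNAI2.

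ZEB1 and ZEB2 UMIs were common on both sides. After thinning to 5000 UMIs, ZEB1 was found in 15.99% of aorta PECAM1-side cells and 7.14% of collagen-side cells, and in 14.7% and 7.69% in the lung. At 10000 UMIs the aorta shares of ZEB1 were 22.3% (19.1 to 25.8) and 17.9% (11.9 to 25.2), with overlapping intervals, and the lung shares 27.7% and 17.1%. ZEB2 was found in 24.1% and 41.6% in the aorta and in 21.0% and 40.9% in the lung. SNAI1 was found in 3.17% and 5.84% in the aorta, with overlapping intervals, and in 2.20% and 6.46% in the lung. At 10000 UMIs its aorta shares were 4.30% (2.85 to 6.19) and 19.3% (13.1 to 26.8), with intervals apart. Before thinning, ZEB2 was found in 82.1% of aorta PECAM1-side cells and 76.8% of collagen-side cells, an order that went against its CPM and is not read as a difference. Among aorta cells with at least 5000 detected genes, ZEB2 was found in 91.9% of PECAM1-side and 97.7% of collagen-side cells. Without thinning, ZEB1 was found in 67.2% and 42.2% in the aorta and 26.9% and 21.3% in the lung.

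**Figure D2:**
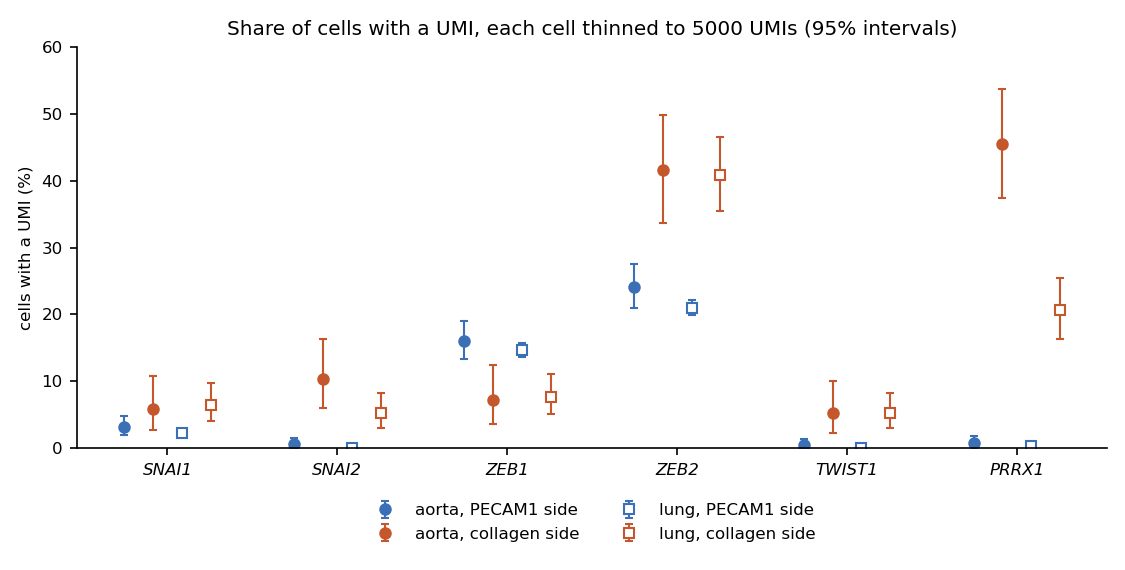
Percent of cells with at least 1 UMI of each gene after every cell was thinned to 5000 UMIs, by library and side, with exact 95% binomial intervals. PRRX1 rises from 0.754% to 45.5% of cells between the sides of the aorta and from 0.323% to 20.6% in the lung, whereas ZEB1 is found in more PECAM1-side than collagen-side cells.

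SNAI2, TWIST1 and PRRX1 were also counted together in each cell. In the 128 collagen-side aorta cells with at least 5000 detected genes, PRRX1 was found in 128, SNAI2 in 82 and TWIST1 in 55. Joint holding beyond what these single shares give was not tested. Of the 128 cells, 37 held all 3, 63 held 2, 28 held 1 and 0 held none. Of the 581 PECAM1-side aorta cells with at least 5000 detected genes, 0 held all 3, 6 held 2, 106 held 1 and 469 held none. The lung cells were shallower, and 4 of 356 collagen-side cells held all 3, 34 held 2, 131 held 1 and 187 held none. In the lung, 55 of 5305 PECAM1-side cells held 1 of the 3, and no cell held more.

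The members were then followed over the part of collagen in each cell's PECAM1, COL1A1 and COL1A2 UMIs, in cells with at least 10 such UMIs. In the aorta PRRX1 was at 2.39 CPM in the 119 cells without collagen, at 1.74 CPM in 434 cells with up to 10% and at 3.03 CPM in 89 cells with 10% to 50%. It was at 104 CPM in 70 cells with over 90% and at 128 CPM in 78 cells with collagen alone. PRRX1 thus stood apart between cells under 50% and over 90%, and the 1 aorta cell between 50% and 90% held 8 PRRX1 UMIs. ZEB1 showed the opposite step, with 28.8, 30.4 and 31.1 CPM in the 3 lower bins and 17.3 and 16.8 CPM in the 2 upper ones. SNAI1 was at 4.96, 5.51 and 5.05 CPM in the lower bins and 16.70 and 17.04 CPM in the upper ones.

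In the lung PRRX1 was at 0.709 CPM in 3260 cells without collagen, 1.01 CPM in 1014 cells with up to 10% and 2.61 CPM (3 UMIs) in 102 cells with 10% to 50%. It was at 16.5 CPM (7.89 to 30.3) in 27 cells between 50% and 90%, and at 47.5 and 51.3 CPM in the 103 and 218 cells above. Those 27 lung cells held PRRX1 at a level between the sides, but ZEB1 at 37.8 CPM (24.0 to 56.8) as on the PECAM1 side. They were deeper, with a median of 19889 UMIs, against medians of 9727 to 12120 UMIs in the other lung bins. Cells with both kinds of UMIs may be doublets or cells with both RNAs, which cannot be told apart from these counts. With a stricter split, which kept cells with at least 5 such UMIs and one kind at least 5 times the other, the ratio of PRRX1 was 55.9 in the aorta and 62.0 in the lung, and that of ZEB1 0.566 and 0.583.

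**Figure D3:**
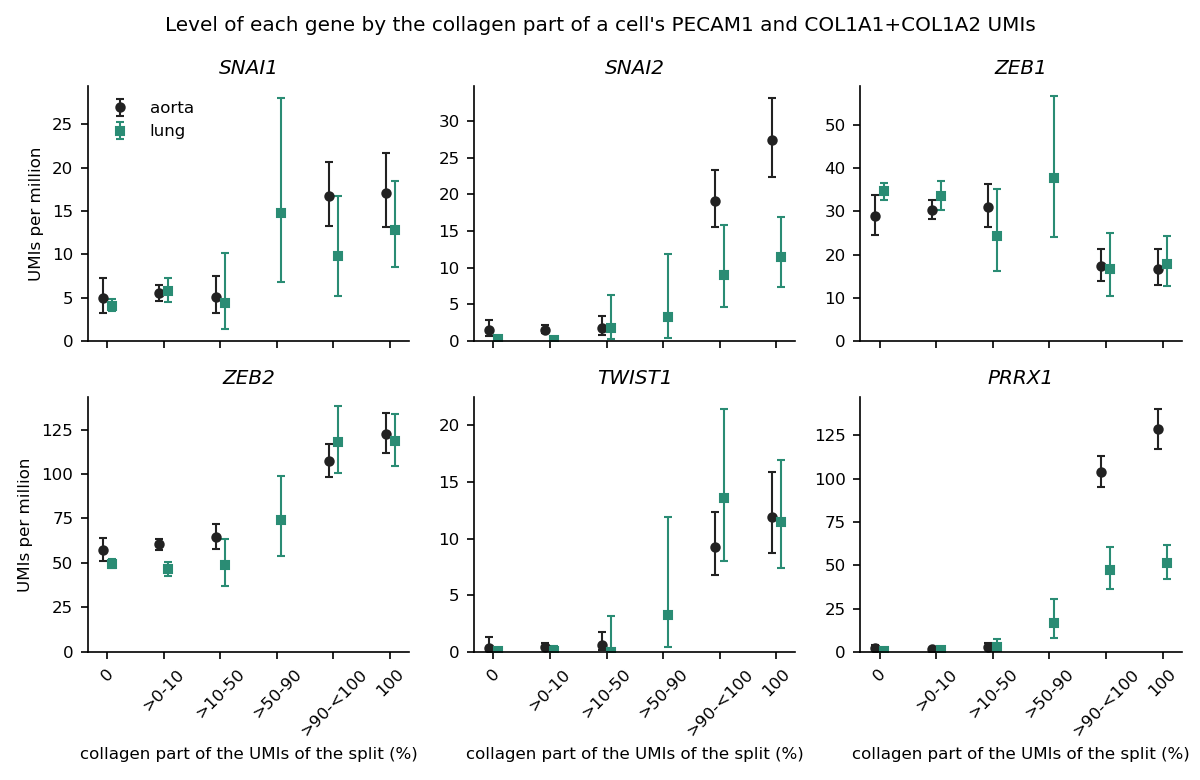
Level of each gene in CPM on a linear axis against the part of COL1A1 and COL1A2 in a cell's PECAM1, COL1A1 and COL1A2 UMIs, in bins of cells, for the aorta and lung, with exact 95% counting intervals. Bins of fewer than 20 cells are not drawn, which leaves out the 1 aorta cell between 50% and 90%; PRRX1 stays between 1.74 and 3.03 CPM up to 50% in the aorta and is at 104 and 128 CPM above 90%.

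The study named EndMT-like cells in the aorta culture from a cluster high in ACTA2 and TAGLN, which encode contractile proteins, without type I collagen. A looser set was taken here, all cells with at least 1 UMI of each and no COL1A1 or COL1A2 UMI, and it numbered 41 in the aorta and 136 in the lung. With at least 2 UMIs of each these counts were 33 and 14, and with mitochondrial UMIs between 1% and 30% they were 14 and 134. In the aorta 14 of them held PECAM1 and 27 did not, and these were unlike each other in depth, with medians of 40902 and 3804 UMIs.

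Of the 14 aorta cells with PECAM1, 8 had at least 1% mitochondrial UMIs and supplied 432195 of their 453310 UMIs, with ACTA2 at 32.4 CPM. In these 8 cells PRRX1 had 0 UMIs, which allows up to 6.94 CPM, and ZEB1 and ZEB2 were at 34.7 and 64.8 CPM, near the levels of the PECAM1 side. The other 6 cells had 21115 UMIs and ACTA2 at 2747 CPM, and 0 PRRX1 UMIs there allow up to 142 CPM, so a collagen-side level was not detectable in them. In the 27 cells without PECAM1, PRRX1 was at 107 CPM (57.1 to 183), from 13 UMIs in 12 cells, which was 52.8-fold (26.8 to 95.9) the level of the PECAM1 side. SNAI2 had 4 UMIs there (33.0 CPM), TWIST1 2 (16.5 CPM), ZEB2 12 (99.1 CPM) and ZEB1 1 (8.25 CPM), and SNAI1 had 0, which allows up to 24.8 CPM. These 27 cells were thus like the collagen side in PRRX1. Of these 27 cells, 21 had under 1% mitochondrial UMIs and held 12 of the 13 PRRX1 UMIs (138 CPM), and the 6 others held 1 (29.4 CPM, 0.744 to 164).

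In the lung 134 of the 136 cells held PECAM1, and PRRX1 and TWIST1 had 0 UMIs in the 136 cells, which allows up to 2.03 CPM. That limit lies above the levels of the lung PECAM1 side, so a lower level was not detectable at this depth, but it lies well below those of the collagen side. ZEB1 was at 36.6 CPM, 1.10-fold (0.825 to 1.44) the PECAM1 side, and ZEB2 at 44.1 CPM, 0.907-fold (0.698 to 1.16). SNAI1 had 7 UMIs (4.75 CPM), 1.05-fold (0.416 to 2.19) the PECAM1 side. SNAI2 had 2 UMIs (1.36 CPM), 5.95-fold the PECAM1 side with an interval of 0.647 to 26.7. No member thus had a ratio whose interval left out 1 in these lung cells.

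**Figure D4:**
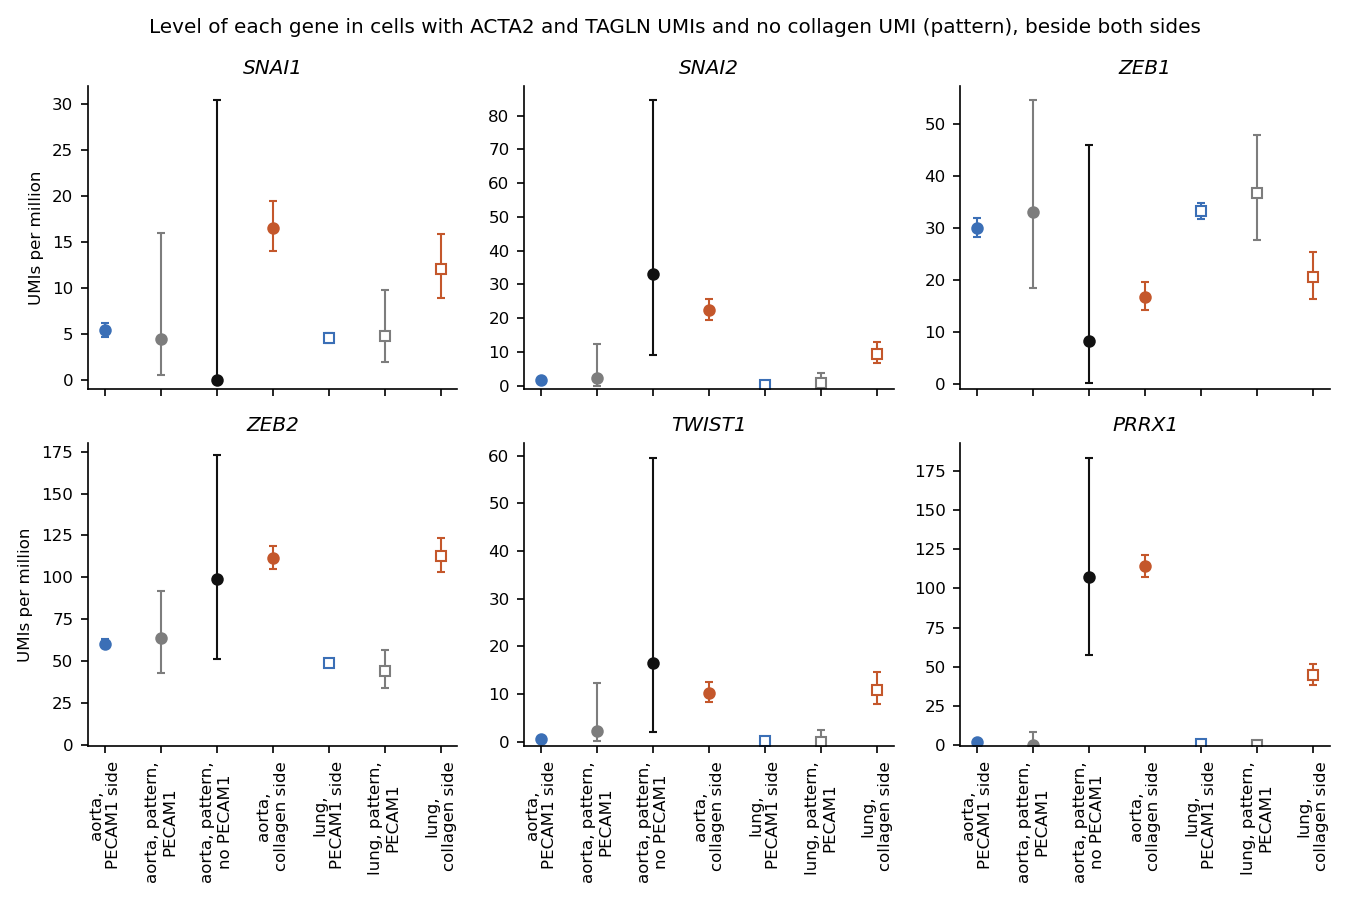
Level of each gene in CPM on a linear axis in cells with ACTA2 and TAGLN UMIs but no type I collagen UMI, with or without PECAM1, beside the PECAM1 and collagen sides of each library, with exact 95% counting intervals. The 27 aorta cells without PECAM1 hold PRRX1 at 107 CPM, near the 114 CPM of the collagen side, and the lung cells hold none.

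The 63 aorta cells with neither PECAM1 nor collagen UMIs, which include those 27, had a median of 2698 UMIs. PRRX1 was at 81.2 CPM (16 UMIs) in them, 39.9-fold (21.7 to 69.2) the PECAM1 side, and SNAI1 had 0 UMIs. Of these 63 cells, 50 had under 1% mitochondrial UMIs.

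Within the lung collagen side, SNAI1 and PRRX1 parted by WT1, a transcription factor of mesothelial and kidney cells. This split was chosen with values of these data known. SNAI1 was at 29.4 CPM (24 UMIs) in the 65 cells with a WT1 UMI and 7.81 CPM (26 UMIs) in the 291 without, a ratio of 3.76 (2.07 to 6.82). PRRX1 was at 9.80 CPM (8 UMIs) and 53.2 CPM (177 UMIs), a ratio of 0.184 (0.0783 to 0.371). SNAI1 was thus higher and PRRX1 lower in the cells with WT1. ZEB2 was at 90.6 and 118 CPM, a ratio of 0.765 (0.589 to 0.983), and the ratios of SNAI2 (0.599), TWIST1 (0.751) and ZEB1 (0.873) had intervals that included 1. Depth was alike, with medians of 11061 and 10607 UMIs, and type I collagen was at 16593 and 9246 CPM. In the aorta only 9 collagen-side cells held WT1, with PRRX1 at 108 CPM against 114 CPM in the others and SNAI1 at 8.70 CPM against 17.1 CPM.

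**Figure D5:**
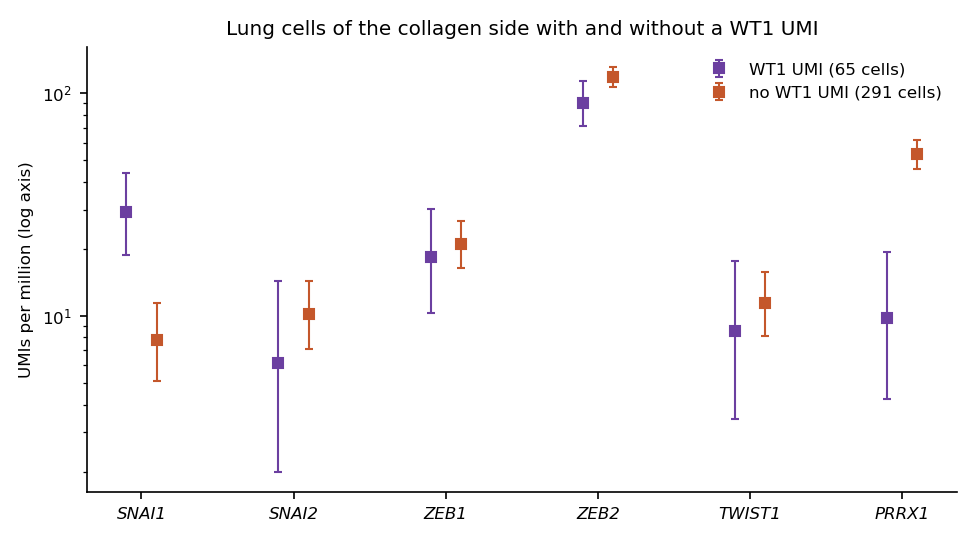
Level of each gene in CPM on a log axis in lung collagen-side cells with (65 cells) and without (291 cells) a WT1 UMI, with exact 95% counting intervals. SNAI1 is higher with WT1 (29.4 against 7.81 CPM) and PRRX1 lower (9.80 against 53.2 CPM).

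The sides were also split by the contractile genes and by a cell division gene. Lung collagen-side cells above the median of ACTA2 and TAGLN had SNAI1 at 6.64 CPM against 17.7 CPM in the rest, a ratio of 0.375 (0.187 to 0.713), and in the aorta the ratio was 1.23 (0.882 to 1.72). PRRX1 differed little by this split, with ratios of 0.930 (0.822 to 1.05) in the aorta and 1.14 (0.842 to 1.53) in the lung. TWIST1 was at 15.7 CPM in lung collagen-side cells with a UMI of TOP2A, a topoisomerase of dividing cells, and at 5.22 CPM in those without, a ratio of 3.01 (1.46 to 6.81). In the aorta the TWIST1 ratio was 1.17 (0.706 to 2.02). On the lung PECAM1 side SNAI1 was lower in cells with TOP2A, at 3.52 against 5.31 CPM, a ratio of 0.662 (0.4997 to 0.872).

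Genes that act with or before the members were read from lists. Of 13 other factors of epithelial transitions, 12 were named in the counts and 5 had enough UMIs for a ratio. PRRX2, the paralog of PRRX1, was at 0.223 CPM (8 UMIs) on the PECAM1 side and 62.7 CPM on the collagen side of the aorta, a ratio of 281 (142 to 654), and at 0.0569 CPM (3 UMIs) and 42.5 CPM in the lung, a ratio of 746 (251 to 3652). The homeobox gene MEOX1 was lower on the collagen side, with ratios of 0.106 and 0.117. PRRX2 was the one gene of this list at least 2-fold higher on the collagen side in each library.

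Of 8 basic helix-loop-helix partners and inhibitors of TWIST1 tested, ID4, an inhibitor of DNA binding, was higher on the collagen side in both libraries (6.29 and 7.68). HAND2 was higher in the aorta at 11.6 (8.57 to 15.8) but at 1.74 (1.28 to 2.34) in the lung. TCF4, an E protein that pairs with TWIST1, was lower, at 0.143 and 0.210. Among 15 corepressors and turnover genes of SNAI1, LOXL2, a lysyl oxidase, was at 2.88 in the aorta and 1.87 in the lung, and the SNAI1 kinase PAK1 at 1.75 and 2.09. AJUBA, a SNAI1 corepressor, was at 0.336 in the aorta and 1.33 in the lung. All other genes of that list lay within 2-fold in both libraries.

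Of 19 inducers of EndMT, mostly ligands, receptors and signal carriers of the TGF-β and Notch pathways, 2 were at least 2-fold higher on the collagen side and 9 at least 2-fold lower in the aorta, against 8.18% and 17.7% of all genes. In the lung 4 were higher and 8 lower, against 7.84% and 13.2%. The ligand genes TGFB3, with ratios of 97.3 and 110, and TGFB1, with 2.58 and 2.54, were higher on the collagen side. The Notch ligand gene JAG1 was at 1.83 and 3.45 and the Notch target HEY2 at 1.60 and 2.02. TGFB2, at 0.0892 and 0.292, and the receptor genes ENG, at 0.115 and 0.247, and TGFBR2, at 0.155 and 0.321, were lower. The side with more PRRX1, TWIST1 and SNAI2 thus had more TGFB3 and TGFB1 and less TGFB2 and TGFBR2.

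Of genes known to fall in EndMT, 14 of 15 tested were at least 2-fold lower on the collagen side of the aorta and 15 of 16 in the lung, against 17.7% and 13.2% of all genes. The endothelial transcription factor gene SOX18 was at 0.00747 (0.00300 to 0.0154) in the aorta and 0.119 (0.0864 to 0.159) in the lung. The VEGF receptor gene FLT1 was the exception, at 1.25 (1.09 to 1.43) and 2.13 (1.82 to 2.49). Of mesenchymal genes known to rise, 11 of 17 tested were at least 2-fold higher in the aorta and 11 of 16 in the lung, against 8.18% and 7.84% of all genes. The sides set PECAM1-rich against collagen-rich cells, so the counts of both lists go with the split itself. Whether EndMT took place was not tested. N-cadherin (CDH2) had 1 UMI on the aorta PECAM1 side and 168 on the collagen side, a ratio of 662 (117 to 26293), and was at 303 (126 to 949) in the lung. The fibronectin gene FN1 was at 0.161 in the aorta and 1.04 in the lung, and the gelatinase gene MMP2 at 0.243 and 0.443. None of 8 genes that keep the epithelial state had enough UMIs for a ratio in either library.

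The genes most like each member in pattern were ranked by Pearson's r of log2(CPM + 1) over 16 pools of cells, among 9081 genes. The pools share 2 libraries and the split into sides, so r mostly carries the sides and is a description. For PRRX1 they were PPP1R14B (0.992), ANPEP (0.991) and WNT5B (0.991), and for SNAI2 SERPINE2 (0.986), PPP1R14B (0.981) and VIM (0.981). For TWIST1 they were VGLL3 (0.972), an unnamed gene (0.970) and PDGFRB (0.969), and for ZEB2 ADAM12 (0.983), LRP1 (0.980) and PAPSS2 (0.979). SNAI1 was closest to SMIM3 (0.942), NIPSNAP2 (0.920) and EEF1A1 (0.904), and ZEB1 to SEL1L3 (0.965), TMEM120A (0.953) and PIM3 (0.9504). Among the members, SNAI2 and PRRX1 were closest, at 0.981, and ZEB1 was negatively related to each of the other 5, between -0.907 and -0.744.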

How the data were processed

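Single-cell RNA was measured in 1 library of cultured aorta ECs and 1 of cultured lung ECs. The deposited matrices hold UMI counts per gene and cell barcode, made by the authors with Cell Ranger 3.0.2 per the submitters' processing notes, on Ensembl gene identifiers of Sscrofa11.1, and not normalized. The members, lists and splits were chosen with earlier results of these data known. Cells with over 200 detected genes and under 30% mitochondrial UMIs were kept, and a cell lay on the PECAM1 or the collagen side by its larger UMI sum. UMIs were pooled by library and side and divided by all UMIs, as CPM. Poisson intervals, conditional intervals of ratios and Clopper-Pearson intervals of shares were exact. With 1 library per tissue no count model was fitted, and a gene was called past 2-fold among genes with at least 30 UMIs over both pools. List genes with at least 100 UMIs were named by the 3 largest ratios each way, and HEY2 was named beside them after its values were seen. Levels were compared within a gene only, since 3′ counts of different genes are not alike in yield. No doublet caller was run. Python 3.11.15, numpy 2.4.6, pandas 2.3.3, scipy 1.17.1 and matplotlib 3.10.9 were used. Alternatives changed the cell filter, the split gene, the strictness of the split, the pooling, the denominator, the thinning depth and the minimum of ACTA2 and TAGLN UMIs.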

Additional observations from a re-analysis of the deposited data

Results flagged for a closer look

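Members were also counted in the cells that had been left out for their mitochondrial UMIs, data that enter no comparison, above the limit that 3 counts allow. In the 230 such aorta cells that limit was 3.47 CPM, and ZEB1 was at 12.7 CPM (11 UMIs), ZEB2 at 55.5 CPM (48 UMIs) and PRRX1 at 6.93 CPM (6 UMIs). In the 237 such lung cells the limit was 11.5 CPM, and ZEB2 was at 23.1 CPM (6 UMIs). No group of 4 or more libraries existed, so no library could be set against the others.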

How the results depend on the processing

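Of the ratios of members recomputed under the alternatives, 173 stayed within their counting interval and 19 moved beyond it. Of those past 2-fold, 0 changed direction, whereas ZEB2 between the collagen sides of lung and aorta lay between 0.828 and 1.36 and TWIST1 between 0.714 and 1.17. With fewer than 5000 detected genes per cell, the aorta sides held 123 and 57 cells, and PRRX1 was at 118-fold and ZEB1 at 0.289 between them. ZEB1 was then 2.49-fold higher on the lung than the aorta collagen side. On the PECAM1 side, 1 member in place of 2 was at least 2-fold lower in the lung than in the aorta, PRRX1 being at 0.999 with 1 aorta UMI. That member, SNAI2, rested on 12 lung and 4 aorta UMIs. With CDH5 in place of PECAM1, the lung sides held 3536 and 704 cells. With mitochondrial UMIs between 1% and 30%, 14 aorta cells held ACTA2 and TAGLN without collagen in place of 41, and with at least 2 UMIs of each, 14 lung cells in place of 136. Leaving out cells with both kinds of UMIs, an alternative added after seeing the data, left the counts of members past 2-fold at 4, 5, 2 and 2. No paired analysis was possible because each tissue had 1 library. TWIST1 and SNAI2 on the lung PECAM1 side rest on 3 and 12 UMIs, which limits their ratios.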

Other observations

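A leukocyte gene, PTPRC, had a UMI in 18 of the lung cells kept and in 0 of the aorta cells. In these 18 cells ZEB2 had 29 UMIs and ZEB1 3, so that ZEB1 made up 9.38% of their ZEB UMIs, and SNAI1, TWIST1 and PRRX1 had 0 UMIs each, which allows up to 21.0 CPM.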
